A study of Mus musculus with 16 samples.

Results

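The 11 tumors compared here were the murine Myc rhabdoid tumors, of 16 primary rhabdoid tumors profiled by RNA-seq in all. They were chosen by their subgroup and by the site in the sample labels: 6 were intra-cranial but outside the central nervous system (intracranial extra-CNS) and 5 were extra-cranial. The 5 intra-CNS tumors were left out of the comparison. The question was which genes and which functional gene families differed between Myc tumors that arose inside and outside the skull.

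Rhabdoid tumors are malignant tumors of early life that lack the chromatin remodeling subunit BAF47, the product of Smarcb1. When they arise in or around the brain they are called atypical teratoid/rhabdoid tumors (ATRT), and they also arise in the kidney and in soft tissue. The Myc subgroup is named for the transcription factor Myc, which drives ribosome production and growth. Tumors outside the brain parenchyma grow beside meninges, pituitary, bone or muscle, and the RNA of a piece of tumor holds the RNA of such neighbors and of infiltrating immune cells as well as that of the tumor cells.

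Each tumor came from a different Rosa26-CreERT2::Smarcb1flox/flox mouse on a mixed 129/SV and C57BL/6 background. All mice, in both groups, had received tamoxifen in utero, which activates a Cre recombinase expressed from the ubiquitous Rosa26 locus and inactivates Smarcb1 in unrestricted cell types. No wild-type or untreated tissue was included, and the cell that each tumor started from is not known from the model. The intracranial tumors were those of mouse 43989C (tamoxifen at E8, 106 days old, female), 43992A (E8, 90 days, female), 29941C (E8, 52 days, male), 29225D (E7, 147 days, male), R26P170 (E6, 170 days, sex not given) and R26P115 (E8, 115 days, female). The extracranial tumors were a back tumor (43825B, E6, 210 days, female), a jaw tumor (43987A, E8, 80 days, female), a nose tumor (43990A, E8, 90 days, male), a mouth tumor (43998A, E8, 84 days, female) and a further jaw tumor (R26P123, E8, 123 days, female). Values of extracranial tumors are given in that order throughout. The extracranial tumors thus came from 4 sites, with 2 tumors in the jaw. The nose tumor is extracranial in the labels and intracranial extra-CNS in the study's own sample list, and it was kept as labelled, with its values given on their own.

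Polyadenylated RNA was sequenced, and the counts per tumor summed to between 17889968 and 110177889, with a median of 28392439.5 in the intracranial and 31551428 in the extracranial tumors. A count of 3, taken as the detection floor, corresponds to between 0.0272 and 0.168 CPM, the count scaled by the total of the tumor. Levels are given as the deposited TPM (transcript abundance scaled to gene length and to the total of the tumor), and differences as log2 fold changes of a negative binomial fit to the counts, positive where the intracranial tumors were higher.

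Smarcb1 transcripts were counted in every tumor. Smarcb1 lay at 26.1, 12.2, 8.63, 22.1 and 18.5 TPM in the extracranial tumors and between 6.48 and 43.7 TPM (median 11.2) in the intracranial tumors. The groups overlapped, with a log2 fold change of -0.02 (SE 0.55). The deposited totals do not separate the floxed part of Smarcb1 from the rest of the gene, so they do not check its deletion. Myc lay at 87.0, 130.5, 203, 94.2 and 193 TPM in the extracranial tumors and between 8.73 and 225 TPM (median 118) in the intracranial tumors, with a log2 fold change of -0.23 (SE 0.54). The lowest Myc level, 8.73 TPM, was that of R26P115, and the other 10 tumors lay at 87.0 TPM or above. R26P115 also stood apart by its choroid plexus transcripts, which made up 256366 of its TPM. The nucleolar Myc targets, which build ribosomes (nucleolin Ncl and Nop56 among them), had a median log2 fold change of -0.01 over 18 genes, beside 0.02 over all genes tested.

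Few single genes separated the sites. Of 21261 genes tested, 1 gene (0.0047%) passed with edgeR, which required an absolute log2 fold change above 1 as well as an adjusted p under 0.05. At an unadjusted p under 0.05, 1442 genes (6.78%) were higher and 1164 genes (5.47%) lower in the intracranial tumors. In 115 genes (0.541%) the lowest intracranial CPM lay above the highest extracranial CPM, and in 75 genes (0.353%) the order was the opposite. DESeq2, which was run as an alternative, called 311 genes higher (1.46%) and 179 genes lower (0.842%). Below, each count within a gene family is to be read against these shares of all genes.

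The gene that passed was Ttc39aos1, a long noncoding RNA, and the gene of the next smallest p was Ttc39a beside it. Ttc39a encodes a protein with tetratricopeptide repeats. In the mouse genome (GRCm38, GENCODE) Ttc39aos1 lies on the minus strand of chromosome 4 from 109403794 to 109406155, and Ttc39a on the plus strand from 109406623 to 109444745. Their outer starts face each other across 467 bases. The annotation used for counting is not given, so whether it holds longer Ttc39a transcripts that span Ttc39aos1 is not known. Because the strand setting of the counting is not given in the sources used here, reads of the pair cannot be fully told apart where their transcripts overlap. The RefSeq promoter windows of both genes (GRCm38.p6, from 250 bases before to 50 bases after the annotated start) are shown because this pair ranked above all other genes. They lie at chr4:109406208-109406507 on the minus strand for Ttc39aos1 and at chr4:109415397-109415696 on the plus strand for Ttc39a, and both are written 5′ to 3′ along the strand of the gene. Capitals mark CACGTG, the palindromic E-box that Myc and its partner Max can bind, which reads the same on both strands.
Ttc39aos1: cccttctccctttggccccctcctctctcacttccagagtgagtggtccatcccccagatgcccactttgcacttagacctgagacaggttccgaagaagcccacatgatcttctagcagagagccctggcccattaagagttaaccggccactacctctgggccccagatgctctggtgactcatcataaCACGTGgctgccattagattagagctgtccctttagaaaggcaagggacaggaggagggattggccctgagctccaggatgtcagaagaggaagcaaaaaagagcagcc
Ttc39a: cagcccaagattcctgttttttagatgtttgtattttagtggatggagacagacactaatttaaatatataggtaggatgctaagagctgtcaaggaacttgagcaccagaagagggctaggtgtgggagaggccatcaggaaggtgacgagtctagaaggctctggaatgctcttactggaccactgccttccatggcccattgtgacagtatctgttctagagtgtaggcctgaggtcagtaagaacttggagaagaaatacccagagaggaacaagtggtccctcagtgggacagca
The Ttc39aos1 window held 1 match, whose first base lies 59 bases before the start, and the Ttc39a window held 0. Of 32851 RefSeq promoter windows of the mouse of the same length, 2349 (7.15%) held the motif. These matches describe the letters of the windows and are not evidence of binding. The RefSeq window of Ttc39a lies at an inner start and not at the start facing Ttc39aos1.

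Ttc39aos1 lay at 0.373, 0.442, 0.317, 0.146 and 0.954 TPM in the extracranial tumors. In the intracranial tumors it lay between 7.18 and 19.8 TPM (median 12.3), so that no intracranial tumor came near an extracranial one. Its log2 fold change was 4.86 (SE 0.55) with an edgeR adjusted p of 0.0356. Over 27 alternative fits the log2 fold change ranged from 3.20 to 5.32 and the adjusted p from 7.745e-24 to 0.596, and 8 of the 27 called the gene. Among the 11 fits that each left out 1 tumor the adjusted p ranged from 0.0205 to 0.245, and the 2 that called Ttc39aos1 were those without 43992A and without R26P123. Ttc39a lay at 0.257, 0.769, 0.716, 0.484 and 1.31 TPM in the extracranial tumors and between 5.0 and 39.2 TPM (median 15.9) in the intracranial tumors. The groups did not overlap for Ttc39a either, with a log2 fold change of 4.81 (SE 0.68) and an edgeR adjusted p of 0.154, which did not pass.

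Genes were then ranked by p among those with a mean count of at least 50, an absolute log2 fold change above 1 and no overlap between the groups. There were 79 such genes higher and 19 lower in the intracranial tumors, and the 10 of smallest p in each direction were taken, of which 9 of the lower genes are described. The lack of overlap of these genes is part of the rule and not a result.

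Of the 10 ranked genes higher in the intracranial tumors, 3 are known from astrocytes: Gfap, the intermediate filament of astrocytes, Aqp4, their water channel, and Mlc1, a membrane protein of their endfeet. Gfap lay between 0.0515 and 0.109 TPM in the 5 extracranial tumors. In the intracranial tumors it lay at 0.674 TPM in 43992A, 3.87 TPM in 43989C, 19.1 TPM in R26P170, 29.3 TPM in 29941C, 49.0 TPM in R26P115 and 164 TPM in 29225D. Its log2 fold change was 9.15 (SE 1.39), with an edgeR adjusted p of 0.227. Aqp4 had a count of 1 in each of 2 extracranial tumors and of 0 in the other 3, and between 1 and 4491 counts in the intracranial tumors. Its lowest and highest intracranial tumors were those of Gfap. Mlc1 lay at 0.0511 TPM or below in the extracranial tumors and between 0.123 and 17.6 TPM (median 4.23) in the intracranial tumors. The astrocyte list as a whole and the other brain lists are given with the neighboring tissues.

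Pcsk1n, an inhibitor of the prohormone convertase of neuroendocrine cells, lay between 1.88 and 269 TPM (median 16.8) in the intracranial tumors. Its extracranial counts were 2, 0, 1, 1 and 0. Cplx1, which regulates the fusion of synaptic vesicles, lay between 0.181 and 4.67 TPM in the intracranial tumors and at 0.0675 TPM or below in the extracranial tumors. Both are known mainly from cells that secrete by regulated exocytosis. Pcsk1n was highest in R26P170, which also held pituitary transcripts (below), while Cplx1 was lowest there.

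The other ranked genes higher in the intracranial tumors were Stk32a, a serine/threonine kinase (log2 fold change 7.14, SE 1.33), Mtmr7, a phosphoinositide phosphatase (4.63, SE 0.91), and Cfap69, a protein of motile cilia (4.19, SE 0.85). Cfap69 lay at 2.10, 3.02, 1.44, 0.775 and 2.41 TPM in the extracranial tumors. In the intracranial tumors it lay between 7.12 and 106 TPM, the highest in R26P115. The edgeR adjusted p of these 3 genes was 0.345, a value shared by a large block of genes after adjustment.

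The ranked genes lower in the intracranial tumors were led by Cilp, a matrix protein of cartilage and other connective tissue. Cilp lay at 11, 4.75, 4.83, 1.39 and 21.5 TPM in the extracranial tumors and between 0.0214 and 0.484 TPM (median 0.0782) in the intracranial tumors. Every extracranial tumor was thus well above every intracranial one, with a log2 fold change of -5.99 (SE 0.99) and an edgeR adjusted p of 0.306. Egr2, a zinc finger transcription factor of the immediate early response, hindbrain and Schwann cells, lay at 15.3, 19.4, 19.0, 22.2 and 20.9 TPM in the extracranial tumors and between 1.35 and 7.36 TPM (median 5.78) in the intracranial tumors, and its log2 fold change was -1.84 (SE 0.36).

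Wnt10a, a secreted Wnt ligand of skin and tooth development, lay at 99.6, 1.89, 2.08, 9.96 and 116 TPM in the extracranial tumors and between 0 and 1.18 TPM (median 0.223) in the intracranial tumors. Its log2 fold change was -7.06 (SE 1.44). The back tumor and the jaw tumor R26P123 were far above the other 3 extracranial tumors. Wnt6, its neighbor on chromosome 1 and a member of the meninges list, had the same 2 tumors on top, at 48.4 and 249 TPM. Wnt6 lay between 0.276 and 1.58 TPM in the intracranial tumors, with a log2 fold change of -6.38 (SE 1.40), and overlapped with the jaw tumor 43987A at 0.693 TPM.

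Elmo1, which activates Rac in cell migration and engulfment, had a log2 fold change of -2.28 (SE 0.44), and Rgma, a guidance molecule and BMP co-receptor, of -2.89 (SE 0.62). Coq8a, a kinase-like protein of coenzyme Q synthesis, had a log2 fold change of -3.60 (SE 0.82) and was highest in the mouth tumor at 198 TPM, beside 7.18 to 26 TPM in the other extracranial tumors. Tmem63a, a mechanosensitive channel (-1.10, SE 0.22), Zcwpw1, a histone reader of germ cells (-1.98, SE 0.44), and Hvcn1, a proton channel (-1.35, SE 0.33), differed by less. None of these genes passed with edgeR, whose adjusted p was 0.306 for Cilp and 0.345 for the rest.

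**Figure D1:**
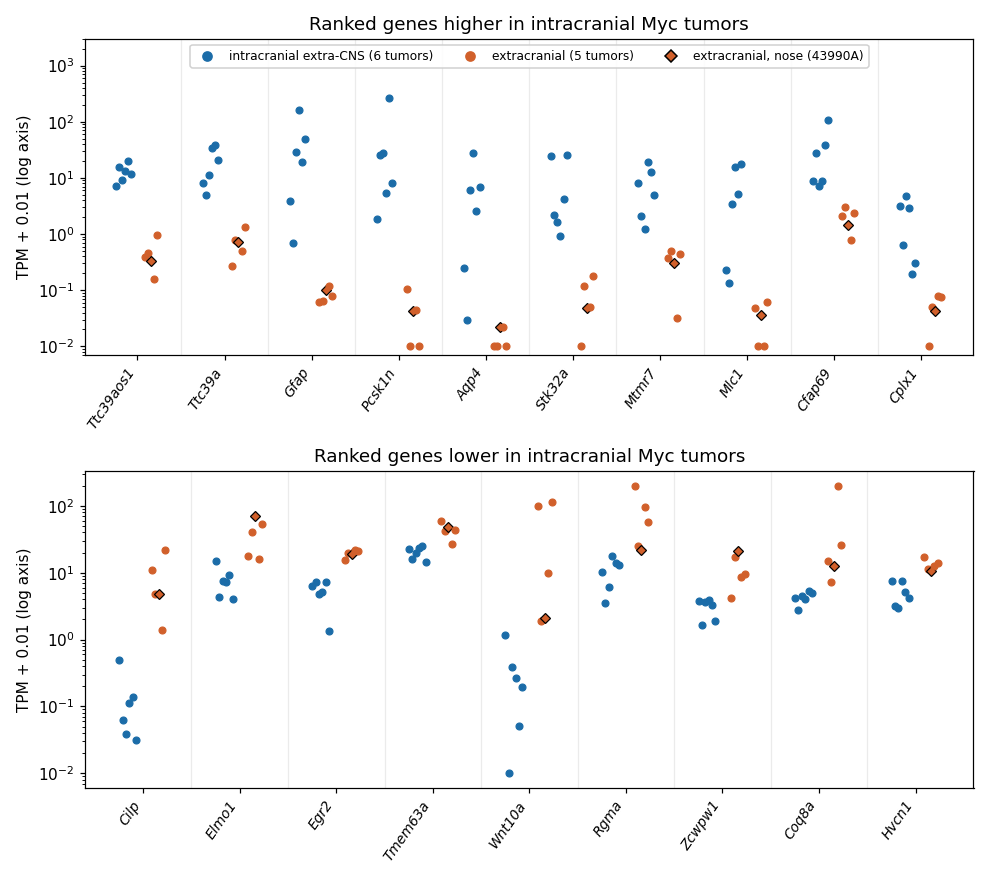
TPM of the ranked genes on a log axis, 10 genes higher (top) and 9 genes lower (bottom) in the intracranial tumors, with 1 point per tumor. Blue points are the 6 intracranial and orange points the 5 extracranial tumors, with the nose tumor as a diamond. Groups are apart in each gene by the rule of the ranking. The spread within a group spans several decades of the axis in Gfap and Wnt10a and less in Egr2 and Hvcn1.

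Gene families were then described by 38 lists of marker and pathway genes, which hold 580 distinct genes. For each list the count of genes at an unadjusted p under 0.05 and the median log2 fold change are given, beside 6.78% higher, 5.47% lower and 0.02 over all genes tested. A member is counted as higher or lower only where its unadjusted p was under 0.05, and 0 members passed edgeR's adjusted test. In bulk tumors fewer cells of a type and less RNA per cell cannot be told apart, and this holds for every family below.

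**Figure D2:**
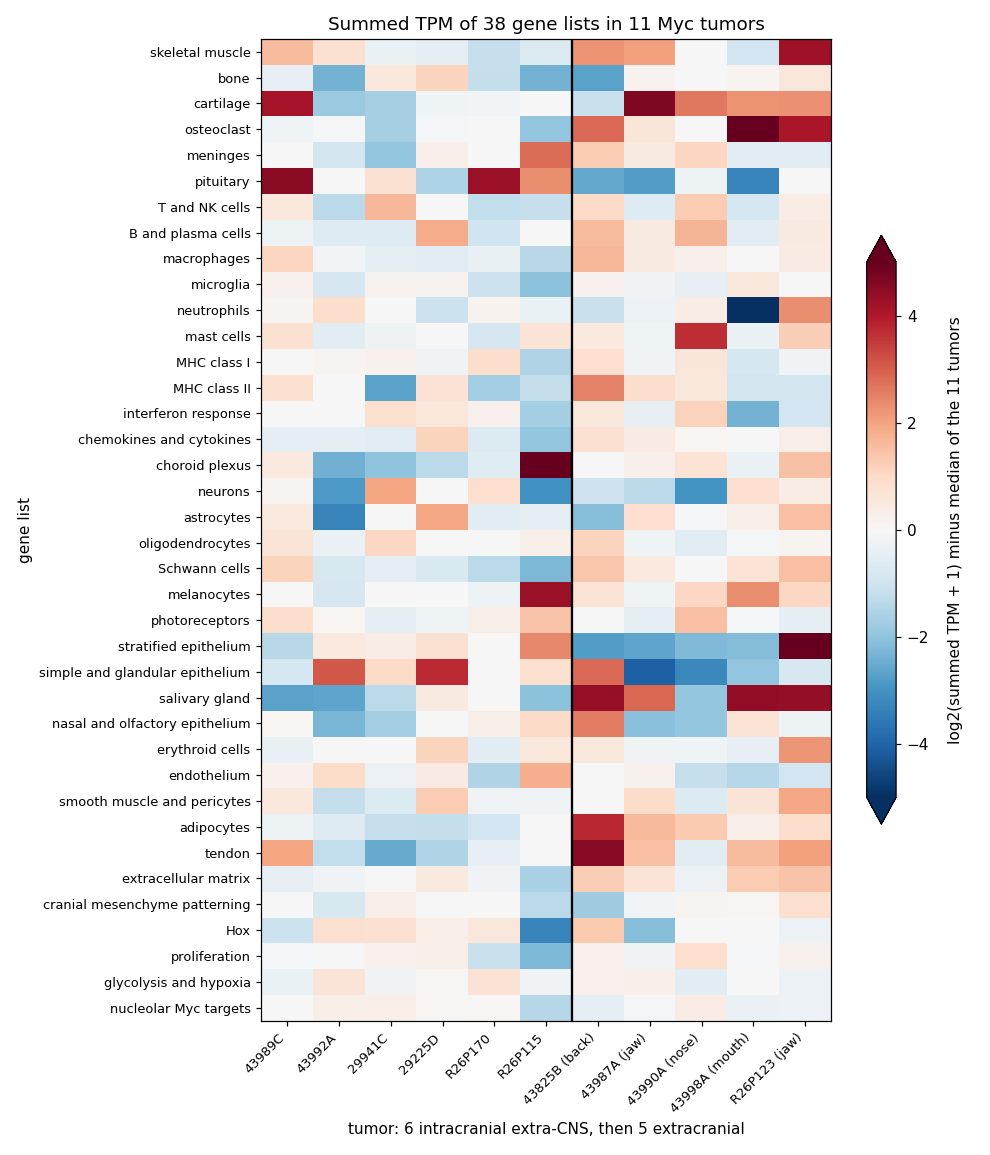
Summed TPM of the 38 gene lists (rows) in the 6 intracranial tumors and the 5 extracranial tumors (columns, divided by the black line), as log2(summed TPM + 1) minus the median of the 11 tumors of that list. Red is above and blue below the median. Many of the strongest cells are 1 or 2 tumors within a group, such as choroid plexus in R26P115, pituitary in 43989C and R26P170, osteoclast in 43998A and R26P123, and stratified epithelium in R26P123.

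Skeletal muscle genes were lower in the intracranial tumors in 10 of 43 genes and higher in 0. The median log2 fold change of the list was -2.72. The summed TPM of the list was 340.01, 296, 71.3, 36.5 and 1378 in the extracranial tumors, and it lay between 31.2 and 213 (median 53.4) in the intracranial tumors. The nose and mouth tumors thus lay within the intracranial range, and 52.2% of the summed TPM of all 11 tumors was in the jaw tumor R26P123. Without R26P123, 5 of the 43 genes were lower and the median was -1.46, and 18 were lower without the nose tumor and 17 without the mouth tumor. Without 43989C, the intracranial tumor with the highest sum, 26 were lower and the median was -3.57.

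Among the more abundant muscle genes (mean count 50 or above), Actn3, Casq1, Myh8 and Mylpf had the smallest p values. Actn3, the fast fiber alpha-actinin, lay at 6.14, 6.81, 32.1, 1.97 and 16.6 TPM in the extracranial tumors and between 0.221 and 3.10 TPM (median 1.21) in the intracranial tumors. Only the mouth tumor overlapped with the intracranial tumors, and the log2 fold change was -3.19 (SE 0.75). Actn3 was highest in the nose tumor, and with that tumor counted as intracranial the log2 fold change was -0.51 (SE 1.15). Casq1, the calcium store of the sarcoplasmic reticulum, had a log2 fold change of -3.42 (SE 0.91), and Mylpf, a fast myosin light chain, of -3.13 (SE 1.04). Myh8, the perinatal myosin heavy chain, was highest in the jaw tumor 43987A at 7.83 TPM, with 0.0645 TPM or below in the intracranial tumors. Myog, a master regulator of muscle differentiation, lay at 1.56, 4.29, 0, 0 and 3.75 TPM in the extracranial tumors, and its intracranial counts were 2 in 43989C, 1 in R26P170 and 0 in the other 4. The sarcomeric actin Acta1, muscle creatine kinase Ckm and the regulator Myod1 had log2 fold changes of -2.75 (SE 1.66), -2.98 (SE 1.74) and -2.38 (SE 1.15) and did not reach an unadjusted p of 0.05. Desmin (Des), the intermediate filament of muscle, did, at -2.72 (SE 1.06).

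Of 18 osteoblast and osteocyte genes, 1 was higher (Mepe) and 2 were lower (Bglap2 and Sost), and the median log2 fold change was -0.29. Without 1 tumor, up to 3 were higher (43987A left out) and up to 4 lower (29225D left out). The median was -0.049 without R26P115 and 0.19 in numbered mice. The osteoblast regulators overlapped between the sites: Runx2 had a log2 fold change of 0.03 (SE 0.63) and Sp7 of -1.97 (SE 1.66). Runx2 lay at 19.5, 26.8, 2.39, 25.2 and 35.2 TPM in the extracranial tumors and between 3.05 and 43.9 TPM (median 21) in the intracranial tumors. Sp7, by contrast, was highest in the nose tumor, at 136 TPM, where Runx2 was lowest. Dmp1, an osteocyte matrix protein, ranged within the intracranial tumors from 0.206 TPM in R26P115 to 876 TPM in 29941C, a spread far above the difference between the groups (log2 fold change 3.60, SE 2.36).

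Cartilage genes were higher in 4 of 18 genes and lower in 0, with a median log2 fold change of 0.86. The count was 2 when R26P115, 29225D, R26P170, 43825B, 43998A or R26P123 was left out and 6 without the nose tumor, and the median ranged from 0.43 to 1.22 without 1 tumor. Single tumors stood out in 2 of them: Col9a3, a collagen of cartilage, lay at 832 TPM in R26P115 and between 1.24 and 3.45 TPM in the other intracranial tumors, and Acan, the cartilage proteoglycan aggrecan, at 16.7 TPM in 29225D and between 0.177 and 1.05 TPM in the others. The master regulator Sox9 (log2 fold change 1.10, SE 0.99) and the cartilage collagen Col2a1 (-0.64, SE 1.22) overlapped between the groups. The summed TPM of the list was carried by Mgp, an inhibitor of calcification that vessels and other tissues also express, at 33706 TPM in the jaw tumor 43987A and 23486 TPM in 43989C.

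Most osteoclast genes were lower in the intracranial tumors. Osteoclasts are bone-resorbing cells that form by fusion of macrophage precursors. Of 11 genes, 10 were lower in the intracranial tumors and 0 were higher, with a median log2 fold change of -5.04. DESeq2 called 5 of the 11 lower, and with limma 5 were lower at an unadjusted p under 0.05 and the median was -2.67. The summed TPM was 1692, 362, 238, 31742 and 4063 in the extracranial tumors and lay between 60.6 and 241 (median 216) in the intracranial tumors, so that the nose tumor overlapped with the intracranial range. The mouth tumor held 81.1% of the summed TPM of the 11 tumors and was the highest tumor in 10 of the 11 genes. The mouth tumor, the jaw tumor R26P123 and the back tumor were the 3 highest tumors in 8 of the 11 genes. Without the mouth tumor, 8 of the 11 genes were lower and the median was -3.05.

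Ctsk, the collagen-degrading protease of osteoclasts, lay at 519, 18.7, 27.4, 11043 and 1406 TPM in the extracranial tumors and between 2.22 and 63.2 TPM (median 9.84) in the intracranial tumors, with a log2 fold change of -7.07 (SE 1.68). Acp5, the tartrate-resistant acid phosphatase used to stain osteoclasts, lay at 550.2, 28.5, 65.0, 9967 and 1175 TPM in the extracranial tumors and between 27.5 and 164 TPM (median 67.1) in the intracranial tumors, with a log2 fold change of -4.95 (SE 1.32). For both genes the back, mouth and jaw R26P123 tumors were above all intracranial tumors, and the jaw 43987A and nose tumors were not. Dcstamp, needed for the fusion of osteoclast precursors, lay at 14.5, 0.196, 0.533, 321 and 17.3 TPM in the extracranial tumors and at 0.618 TPM or below in the intracranial tumors. Oscar, a costimulatory receptor of osteoclasts, and Atp6v0d2, a subunit of their proton pump, showed the same order at the top, with log2 fold changes of -6.04 (SE 1.42) and -6.42 (SE 1.60). Tnfrsf11a, the receptor RANK, was the member that did not reach an unadjusted p of 0.05 (log2 fold change -1.20, SE 0.61). The edgeR adjusted p of Ctsk, Acp5, Dcstamp, Oscar and Atp6v0d2 was 0.345.

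Meningeal genes differed in both directions. Of 23 genes, 6 were higher and 3 lower in the intracranial tumors, with a median log2 fold change of 0.90. The count of higher genes was 3 without R26P115 and 10 without the nose tumor. The median was 0.24 without R26P115 and 2.06 without R26P123, and it was -0.01 without R26P115 and 43989C together, so that its size rests on single tumors. The summed TPM was 2183, 1245, 1906, 630.1 and 638 in the extracranial tumors and lay between 234 and 6309 (median 906) in the intracranial tumors, the highest in R26P115.

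Ptgds, the prostaglandin D synthase of arachnoid and choroid plexus, was the only gene of this list without overlap in the higher direction. Ptgds lay at 0.26, 0.111, 1.18, 0.0919 and 0.0883 TPM in the extracranial tumors. Intracranial levels were 3.81 TPM in 29225D, 3.83 TPM in 43992A, 7.51 TPM in 29941C, 8.67 TPM in R26P170, 222 TPM in 43989C and 2540.1 TPM in R26P115, and the log2 fold change was 10.59 (SE 2.53), or 7.21 (SE 1.63) without R26P115. Ptgds thus separated the sites also in the 4 intracranial tumors with low levels. Foxc1, a transcription factor required for meningeal development, was at 0.526, 0.628, 128, 0.538 and 3.67 TPM in the extracranial tumors and between 1.83 and 40.7 TPM (median 16.9) in the intracranial tumors. The nose tumor had the highest Foxc1 level of all 11 tumors, and the other 4 extracranial tumors lay within or below the lower part of the intracranial range. The log2 fold change over all 11 was -0.42 (SE 1.38).

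The 3 lower genes of the meninges list were Wnt6 (above), Crabp2, a retinoic acid binding protein, and Fmod, a small proteoglycan that binds collagen. Crabp2 lay at 299, 358, 249.9, 258 and 67.0 TPM in the extracranial tumors and between 6.07 and 138 TPM (median 14.6) in the intracranial tumors. The intracranial tumor 29225D lay above the jaw tumor R26P123, and the remaining tumors were apart, with a log2 fold change of -2.83 (SE 0.76). Fmod was at 932 TPM in the back tumor and between 5.95 and 19.9 TPM in the other extracranial tumors, beside 0.146 to 22.3 TPM in the intracranial tumors. Aldh1a2, which makes retinoic acid in the meninges, and Tbx18, a transcription factor of meninges and pericytes, had log2 fold changes of 0.69 (SE 1.29) and -2.28 (SE 1.20).

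Pituitary genes were higher in the intracranial tumors in 10 of the 19 genes with a count and lower in 1. The median log2 fold change was 4.03, and 4.0 with genes at 0 in a group set at their bound. DESeq2 called 5 of the 19 higher. Many of these genes were near the floor: 7 of the 19 had a mean count of at least 50. The low-count filter filterByExpr kept 2 of the 19, of which 1 was higher. At an unadjusted p under 0.05, 1 was higher with limma and 6 with tamoxifen day as a covariate. With sex as a covariate 4 were higher, in a fit that left out R26P170, whose sex is not given. Without R26P170 and with no covariate, 7 were higher. The summed TPM was 2.19, 1.71, 14.6, 0.854 and 17.8 in the extracranial tumors. It was 5.38 in 29225D, 17.9 in 43992A, 30.8 in 29941C, 94.3 in R26P115, 374 in R26P170 and 427 in 43989C. R26P170 and 43989C thus stood far above the rest, and without both of them the median was 0.67 and 6 genes were higher.

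Gh, growth hormone, lay at 0, 0, 0.242, 0.0819 and 0 TPM in the extracranial tumors. In the intracranial tumors it lay between 0.253 and 175 TPM (median 1.86), with 43989C and R26P170 (159.9 TPM) on top. The groups did not overlap in Gh, although the lowest intracranial tumor, 43992A, held 2 counts and the nose tumor 3. The fitted log2 fold change was 9.67 (SE 2.39). Prl, prolactin, had a count of 0 in each of the 5 extracranial tumors, where the floor of 3 counts lies between 0.059 and 0.138 CPM. It lay at 139 TPM in 43989C, 52.1 TPM in R26P170, 2.85 TPM in R26P115 and 0.186 TPM or below in the other 3 intracranial tumors. With counts and normalized totals pooled within each group, intracranial Prl was at least 344-fold above a floor of 3 counts over the 5 pooled extracranial tumors. This pooled floor lies below the floors of the single tumors. The same bound was at least 139.7-fold without 43989C and at least 9.37-fold without 43989C and R26P170.

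Pomc, the precursor of adrenocorticotropic hormone, lay at 0.87, 1.18, 1.16, 0.558 and 0.751 TPM in the extracranial tumors. It lay at 108 TPM in 43989C and 94.7 TPM in R26P170, and between 0.259 and 1.27 TPM in the other 4 intracranial tumors. Of these 4, 29225D lay in the extracranial range, 29941C just above it and 43992A and R26P115 below it, and the log2 fold change of Pomc, 5.25 (SE 1.70) over all 11 tumors, was -0.24 without 43989C and R26P170. Lhx3, a transcription factor of the pituitary primordium, was at 16.6 TPM in R26P170 and at 0.153 TPM or below in the other 10 tumors. Pou1f1, the regulator of the Gh and Prl lineages, lay at 0.274 TPM or below in every tumor, with a log2 fold change of 1.56 (SE 1.0). Crhr1, the receptor for corticotropin-releasing hormone, was instead highest in 29941C, at 8.62 TPM.

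Pcsk1n, the ranked neuroendocrine gene, was also highest in R26P170 (269 TPM), but in 43989C, where Gh and Prl were highest, it was at its lowest intracranial level of 1.88 TPM. The pituitary levels and the Pcsk1n levels therefore did not follow the same order of tumors. Whether pieces of adjacent pituitary were included in 43989C and R26P170 was not tested.

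**Figure D3:**
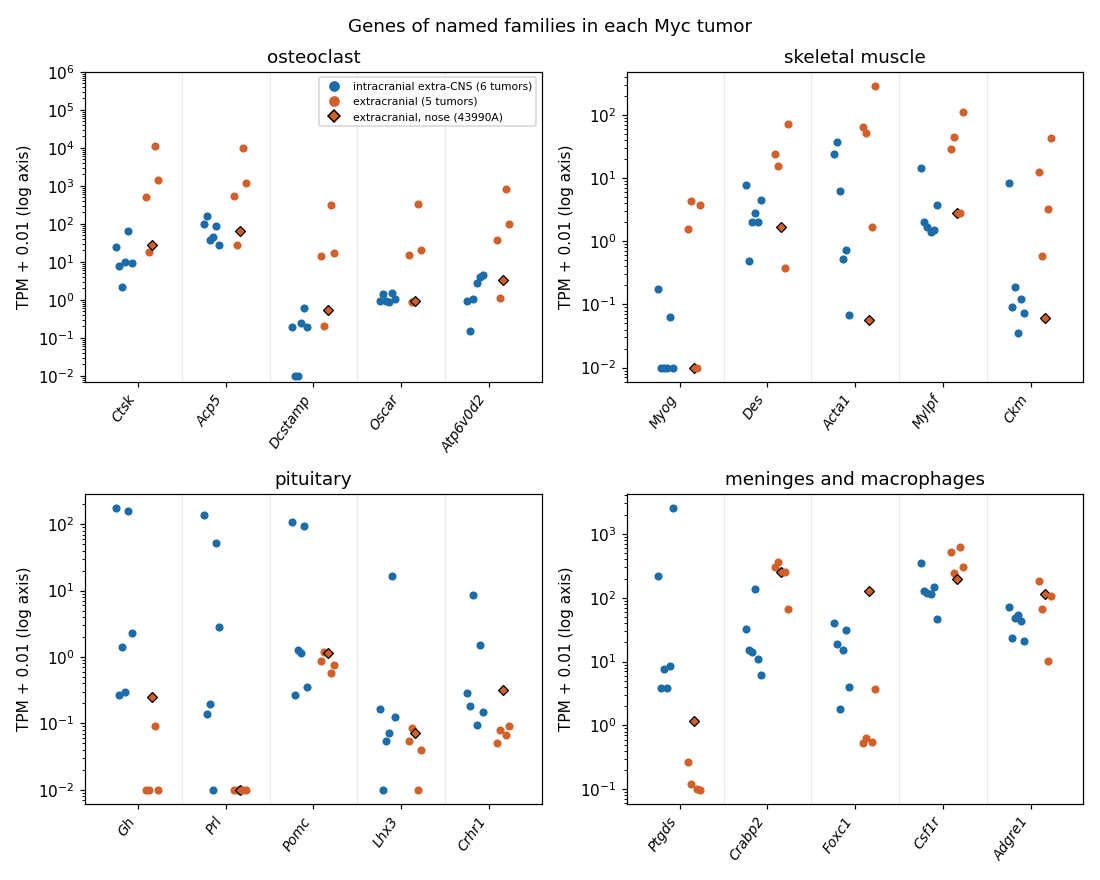
TPM on a log axis of 5 genes each of the osteoclast list (top left), the skeletal muscle list (top right), the pituitary list (bottom left) and the meninges and macrophage lists together (bottom right), with 1 point per tumor. Blue points are the 6 intracranial and orange points the 5 extracranial tumors, with the nose tumor as a diamond. The 3 highest extracranial points in Ctsk, Dcstamp, Oscar and Atp6v0d2 stand clear of all intracranial points, and 2 intracranial tumors stand on top in Gh, Prl and Pomc.

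Most immune lists had negative medians, and few of their members reached an unadjusted p of 0.05. Of 16 macrophage genes, 3 were lower and 0 higher, with negative log2 fold changes in 15 of 16 and a median of -0.53. The median without the back tumor, which was the highest in 12 of the 16 genes, was -0.10, and it was -0.92 without 43989C. The count of lower genes was 7 without 43989C and 1 without R26P115, 29225D or the mouth tumor. Among mice induced at E8 alone 0 genes were lower and the median was 0.017. Csf1r, the receptor for the macrophage growth factor, lay at 529.8, 244, 193, 618 and 306 TPM in the extracranial tumors and between 45.8 and 346 TPM (median 123) in the intracranial tumors. Only 43989C, the highest of the intracranial tumors, overlapped with the extracranial range of Csf1r, and the log2 fold change was -1.33 (SE 0.48). The lysosomal marker Cd68 (-1.39, SE 0.55) and the signaling adaptor Tyrobp (-1.29, SE 0.51), which osteoclasts also use, were the other 2. Both were highest in the mouth tumor, at 1563 and 2032 TPM, the tumor with the highest osteoclast levels. Adgre1, the macrophage marker F4/80, was on the contrary lowest in the mouth tumor, at 10.4 TPM, beside 66.3 to 181 TPM in the other extracranial tumors and 21.1 to 72.8 TPM in the intracranial tumors.

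Of 10 microglia genes, 1 was lower and 0 were higher, with a median of -0.66, and 4 were lower without 43989C and 2 without the mouth tumor. This median was -1.03 without 43989C and -0.39 without the back tumor. P2ry12 and Tmem119, which mark resident microglia, had log2 fold changes of -0.45 (SE 0.58) and 0.07 (SE 0.68) and were present in every tumor, intracranial or not. P2ry12 was lowest in the mouth tumor, at 2.81 TPM.

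Lymphocyte genes were at low levels. Of 18 T and NK cell genes, 2 were lower and 0 higher (median log2 fold change -0.55). The median was -0.076 without the back tumor and -0.92 without 29941C, and 1 gene was lower without the nose tumor, R26P123, 29941C or R26P170. With the nose tumor counted as intracranial, 0 T and NK cell genes were lower and the median was -0.02. Of 8 B and plasma cell genes with a count, 2 were lower and 0 higher (median -1.14). The count was 1 without the back tumor, 43987A, 43989C or R26P170 and 3 without 29225D, and 0 at E8 alone and with the nose tumor counted as intracranial. Cd4, a coreceptor of helper T cells that mouse macrophages can also express, lay at 4.69, 5.51, 23.3, 8.99 and 18.9 TPM in the extracranial tumors and between 0.889 and 4.96 TPM (median 3.04) in the intracranial tumors. The back tumor alone overlapped, and the log2 fold change was -2.11 (SE 0.55). The T cell receptor subunit Cd3e (-1.18, SE 1.11) and the cytotoxic coreceptor Cd8a (-1.66, SE 1.16) overlapped widely. Cd79b, a subunit of the B cell receptor, had a log2 fold change of -1.92 (SE 0.64). Ms4a1, the B cell marker CD20, was at 0.141 TPM or below in every tumor.

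Neutrophil genes (10 genes, 0 lower, 0 higher, median 0.69) and interferon response genes (20 genes, 0 and 0, median 0.17) gave no gene at an unadjusted p under 0.05. Both medians turned sign when 1 tumor was left out: that of the neutrophil list ranged from -0.040 (without 43992A) to 1.19 (without R26P123) and that of the interferon list from -0.084 (without the mouth tumor) to 0.54 (without the nose tumor). The alarmins S100a8 and S100a9 were lowest in the mouth tumor, at 0.566 and 0.988 TPM, and highest in the jaw tumor R26P123, at 377 and 522 TPM. The interferon-induced Isg15 lay at 39.4 TPM in R26P115 and 43.3 TPM in the mouth tumor, and at 116 TPM or above in the other 9 tumors. Of 7 mast cell genes 1 was lower (median -1.59). The count was 0 without the nose tumor, 43992A, 29941C, 29225D or R26P170 and 2 without 43989C. The median was -0.49 without the nose tumor and -0.73 without R26P123, and with the nose tumor counted as intracranial it was 0.21. The lower gene was Kit, a receptor of many progenitor cells, which lay at 60.8 TPM in the nose tumor and between 1.44 and 7.47 TPM in the other 10. The defining mast cell markers Cpa3 and Mcpt4 were at 1.34 and 2.23 TPM or below.

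Antigen presentation genes did not pass either. MHC class I genes (9 genes) had 0 in each direction and a median of -0.09, which was 0.18 without the back tumor. MHC class II genes (8 genes) also had 0 in each direction, but all 8 log2 fold changes were negative, with a median of -1.09, and all 8 were highest in the back tumor. H2-Aa lay at 2616, 853, 738, 231 and 197 TPM in the extracranial tumors and between 53.9 and 759.9 TPM (median 294) in the intracranial tumors, with a log2 fold change of -1.33 (SE 0.80). Without the back tumor the median of the class II list was -0.29.

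Chemokine and cytokine genes were lower in 7 of the 30 genes with a count and higher in 0, with a median log2 fold change of -1.07, which stayed between -1.34 and -0.89 when any 1 tumor was left out. The count was 4 without R26P123. Cxcl9, a T cell attractant induced by interferon gamma, lay at 11.7, 1.65, 317, 0.0764 and 35.2 TPM in the extracranial tumors and between 0.472 and 4.17 TPM (median 1.70) in the intracranial tumors. Its log2 fold change of -5.19 (SE 1.51) rested on the nose tumor, and it was 1.90 with that tumor counted as intracranial. Ccl9, an attractant of macrophages and osteoclast precursors, lay at 203, 43.6, 65.0, 769.6 and 111 TPM in the extracranial tumors and between 23.1 and 111 TPM (median 42.4) in the intracranial tumors, with a log2 fold change of -2.26 (SE 0.73). As with the osteoclast genes, the mouth tumor was highest. Cxcl14 (-2.48, SE 0.79) was highest in the jaw tumor R26P123 at 161 TPM, and the B cell attractant Cxcl13 (-2.13, SE 0.72) in the jaw tumor 43987A at 54.9 TPM.

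**Figure D4:**
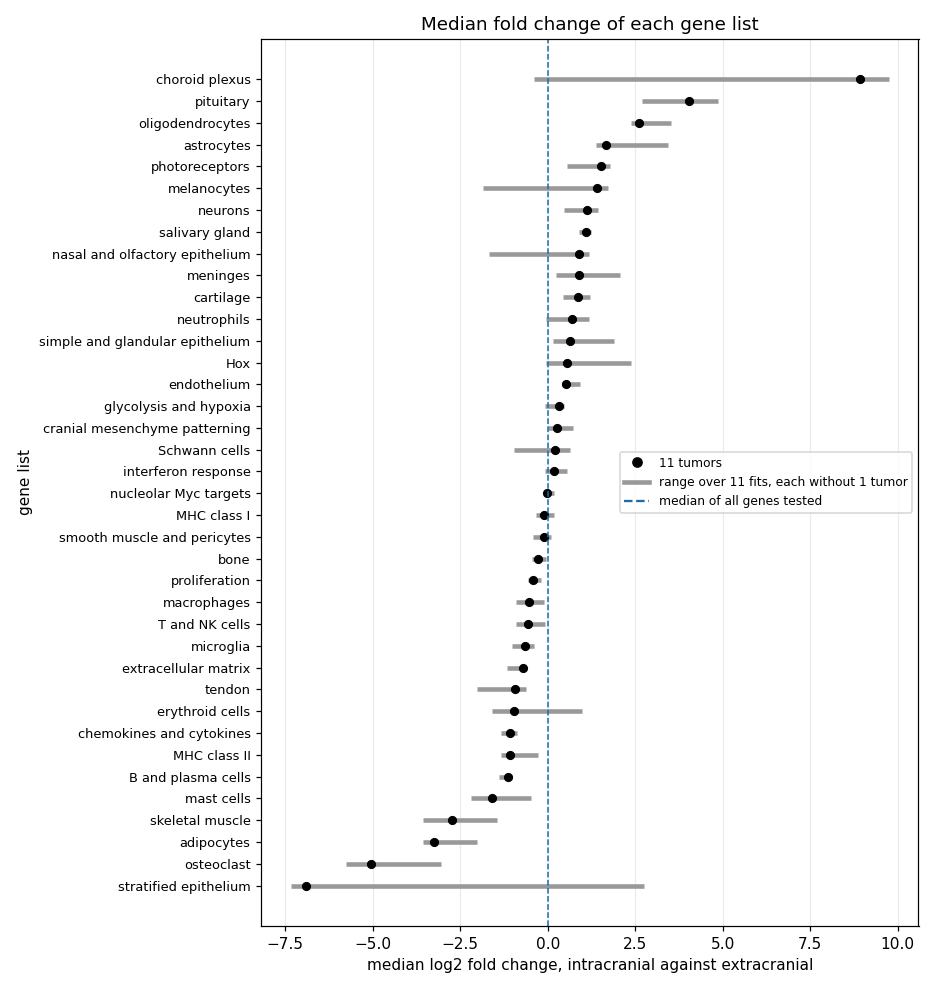
Median log2 fold change of each of the 38 gene lists between intracranial and extracranial tumors (black points), with gray bars for the range over 11 fits that each leave out 1 tumor. The dashed line is the median of all genes tested (0.02). The bars of choroid plexus, stratified epithelium and melanocytes cross 0 and are the longest, and those of osteoclast and pituitary stay on one side.

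Markers of neighboring tissue moved with some of these families. The choroid plexus, which secretes cerebrospinal fluid, had 11 of 14 genes higher and a median log2 fold change of 8.93. The summed TPM of the list in R26P115 was 99.8% of that of all 11 tumors, and between 8.70 and 142 in the other 10. Enpp2 (autotaxin), Kl (klotho) and the folate receptor Folr1 lay there at 48046, 1766 and 1178 TPM. Without R26P115 the median of the list was -0.38, with 2 genes higher and 2 lower. R26P115 was also the tumor of the lowest Myc level, of the highest Ptgds and Cfap69 levels, and of Col9a3 and the pigment gene Oca2 (66.1 TPM there and 0.0932 TPM or below elsewhere), and the part of choroid plexus in these was not tested.

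Some glial genes were higher in the intracranial tumors, while the summed glial levels overlapped. The astrocyte list summed to between 15.0 and 618 TPM (median 139) in the intracranial and 36.1 and 466 TPM (median 199.8) in the extracranial tumors, and the oligodendrocyte list to between 48.7 and 127 TPM and between 42.2 and 136 TPM. Of 7 astrocyte genes 3 were higher (Gfap, Aqp4 and S100b), and 2 had negative log2 fold changes. Of 10 oligodendrocyte genes 5 were higher and 1 lower. The median log2 fold change of the astrocyte list was 1.66, with a range from 1.37 (without 43987A) to 3.44 (without the nose tumor) when 1 tumor was left out, and it was 3.50 with the nose tumor counted as intracranial and 0.82 at E8 alone. The median log2 fold change of the oligodendrocyte list was 2.60, with a range from 2.39 to 3.53 when 1 tumor was left out. Mobp, a protein of central myelin, lay at 0.0323, 0.0138, 0.0112, 0.0456 and 0 TPM in the extracranial tumors and between 0 and 7.74 TPM (median 2.34) in the intracranial tumors. Mobp was not counted in the intracranial tumor 43992A, and the other 5 intracranial tumors lay above all extracranial tumors. Olig1, a transcription factor of the oligodendrocyte lineage, had 1 count in 1 extracranial tumor and between 1 and 168 counts in the intracranial tumors. Neuronal genes gave 2 of 16 higher (median 1.14), or 5 without R26P115 or 43987A and 4 without 43992A. The median was 0.48 without 29941C, the highest tumor in 6 of the 16 genes. It was 0.43 with sex as a covariate, in a fit that left out R26P170, and 1.02 without R26P170 alone. The summed TPM of the neuronal genes overlapped, between 54.9 and 1817 in the intracranial and 57.1 and 825 in the extracranial tumors. The part of adjacent brain in these levels was not tested.

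On the extracranial side, stratified epithelium, the tissue of skin and oral mucosa, was lower in 9 of 14 genes with a median of -6.90. The list summed to 3643 TPM in the jaw tumor R26P123 and to between 4.13 and 191 TPM in the other 10 tumors. Without R26P123, 0 of the 14 genes were lower and the median was 2.75. Krt4, a keratin of oral and esophageal mucosa, held 12206 counts there, 2 counts in R26P170 and 0 in the other 9. R26P123 was also the tumor with the highest skeletal muscle sum. The salivary water channel Aqp5 lay at 782, 273, 4.56, 838 and 819 TPM in the extracranial tumors and between 0.147 and 49.2 TPM (median 4.95) in the intracranial tumors, with a log2 fold change of -5.24 (SE 1.40). The nose tumor was the only extracranial tumor within the intracranial range of Aqp5.

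Without the nose tumor, edgeR called 2 genes, Snhg11 and Snx7, in place of Ttc39aos1. With the nose tumor counted as intracranial, the single gene called was Snhg11, and Ttc39aos1 had an edgeR adjusted p of 0.22 (log2 fold change 4.54, SE 0.97). Snhg11, a noncoding RNA abundant in neurons, lay at 0.161, 0.321, 4.44, 0.202 and 0.279 TPM in the extracranial tumors and between 5.45 and 19.5 TPM (median 9.43) in the intracranial tumors. Its log2 fold change was 5.39 (SE 0.47) without the nose tumor, with an edgeR adjusted p of 0.00603, and 3.32 (SE 0.93) with it, with an adjusted p of 0.345. Snx7, a sorting nexin of endosomes, lay at 178, 88.7, 11.6, 123 and 116 TPM in the extracranial tumors and between 23.6 and 36.4 TPM (median 27.9) in the intracranial tumors. Its log2 fold change was -2.18 (SE 0.23) without the nose tumor, with an edgeR adjusted p of 0.0155.

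For both genes the nose tumor lay on the intracranial side of the other extracranial tumors, and for Snx7 even beyond the intracranial range. Both were picked because they were called once the nose tumor was left out, so its place in them follows from that choice. In the ranked genes it lay on the extracranial side, as the rule of the ranking requires. The osteoclast and skeletal muscle sums of the nose tumor (238 and 71.3 TPM) were within the intracranial ranges. These genes and sums were set side by side after their values were seen.

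**Figure D5:**
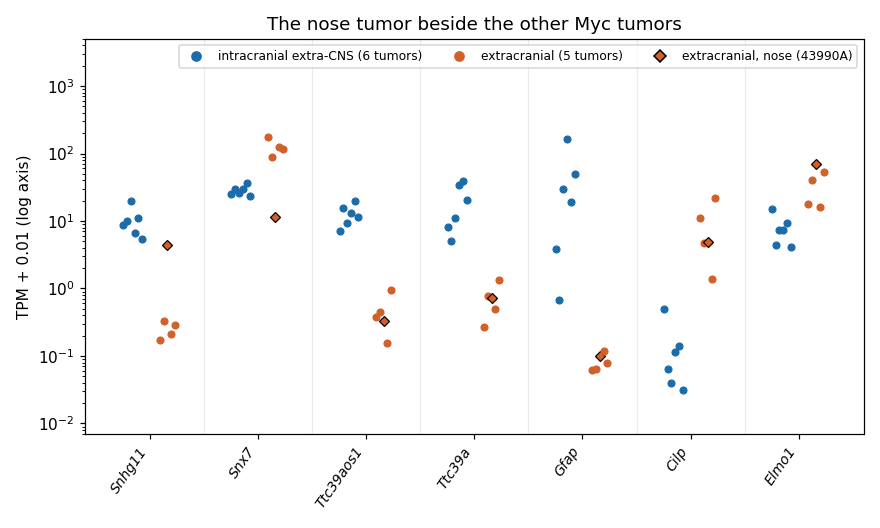
TPM on a log axis of Snhg11 and Snx7, which were called without the nose tumor, and of 5 ranked genes, with 1 point per tumor. Blue points are the 6 intracranial and orange points the 5 extracranial tumors. The nose tumor (diamond) is nearest to the intracranial points in Snhg11, below all points in Snx7, and on the extracranial side in the ranked genes, as their rule requires.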

How the data were processed

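Bulk frozen tumors were profiled by stranded paired-end sequencing of polyadenylated RNA. The authors deposited whole-number counts per gene without normalization, from reads mapped to mm10 with STAR 2.5.3a, and Trim Galore, FastQC and Picard also stand in the submitters' processing notes. The authors deposited TPM values of the same tumors as well. The gene annotation and the strand setting of the counting are not given in the sources used here. Per-sample columns that match no sample used here, 1 in number, were left out.

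Genes with a count in any of the 11 tumors were fitted with edgeR 4.0.16 (TMM, glmQLFit, glmQLFTest; R 4.3.3), and p-values were adjusted by Benjamini-Hochberg across the 21261 genes. Calls needed an absolute log2 fold change above 1 together with an adjusted p under 0.05. The p-values measure the spread between mice, each with 1 tumor. Total counts from 17889968 to 110177889 set the floor of 3 counts, and floors cover counting error only. The fit was tested on simulated counts of the 11 tumors in which 200 of 21261 genes differed. It found 25.5% of them at a 4-fold difference (0 false calls) and 63.5% at an 8-fold difference (1 false call).

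The genes named were Smarcb1 and Myc, the 10 genes of smallest p in each direction among those with a mean count of at least 50, an absolute log2 fold change above 1 and no overlap in CPM, and, for the skeletal, meninges, pituitary and immune lists, the defining markers and the 4 members of smallest p with such a count. Other lists gave their member of smallest unadjusted p under 0.05 in each direction. Of these, 6 are not reported here. Snhg11, Snx7 and further list members were named outside this rule, after their values were seen. Members, lists and rules were chosen with earlier results of these data known. No set test was run. Alternatives were DESeq2 1.42.0, its size factors in edgeR, limma 3.58.1 on log2(TPM + 1), filterByExpr, robust dispersion, all 16 tumors, covariates (age, sex, tamoxifen day, scheme of mouse names), E8 or numbered mice alone, 43990A as intracranial and the omission of each tumor, and 3 fits without a pair of tumors, chosen after seeing the data. The fit with sex left out R26P170, whose sex is not given. Gene positions came from GENCODE M21 (GRCm38), in which 24490 symbols were found, and promoter windows from RefSeq (GRCm38.p6). Tables and figures were made with Python 3.11.15, pandas 2.3.3, numpy 2.4.6 and matplotlib 3.10.9.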

Additional observations from a re-analysis of the deposited data

Results flagged for a closer look

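In 208 groups of values (the summed TPM of each list, or the TPM of each named gene, within the 6 intracranial or the 5 extracranial tumors) whose range exceeded 2 on the log2(TPM + 1) scale, the highest and the lowest tumor were compared with the nearest other tumor by Dixon's ratio. The critical values used flag about 1 in 20 groups of independent normal values. The groups here were kept for their range and share tumors and genes, so that rate does not apply to them. There were 34 groups with 1 tumor apart, 20 of them intracranial.

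R26P115 stood apart most often. It was highest in the summed TPM of choroid plexus (256000 TPM to 3 digits) and melanocytes (145 TPM), and in Alpl (49.0 TPM), Col9a3 (832 TPM), Oca2 (66.1 TPM), Foxj1 (166 TPM), a regulator of motile cilia, and Slco1c1 (654 TPM), a thyroid hormone transporter of brain barriers. It was lowest in Myc (8.73 TPM), in Isg15 (39.4 TPM) and in the sum of the interferon response list (644 TPM). 43989C was highest in the cartilage sum (23500 TPM to 3 digits), in the muscle genes Ckm (8.31 TPM) and Mylpf (14.4 TPM) and in the neutrophil granule gene Camp (159 TPM). 29225D was highest in the B and plasma cell sum (26.6 TPM) and in Blk (13.1 TPM), a kinase of B cells, and in Sp7 (66.2 TPM) and Acan (16.7 TPM). R26P170 was highest in Ltf (102 TPM), lactoferrin, and in Pax3 (92.8 TPM), a transcription factor of neural crest and muscle progenitors.

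Among the extracranial tumors, the nose tumor 43990A was highest in Alpl (7.02 TPM), Foxc1 (128 TPM), Ltf (5.85 TPM) and Kit (60.8 TPM), and lowest in Runx2 (2.39 TPM), Aqp5 (4.56 TPM) and the salivary gland sum (9.22 TPM). The jaw tumor R26P123 was highest in the stratified epithelium sum (3640 TPM to 3 digits) and in Krt4 (407 TPM), and lowest in Crabp2 (67.0 TPM). The back tumor 43825B was lowest in the bone sum (506 TPM) and highest in Fmod (932 TPM). The jaw tumor 43987A was highest in Dmp1 (93.0 TPM), and the mouth tumor 43998A was lowest in P2ry12 (2.81 TPM).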

How the results depend on the processing

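No paired analysis was possible because the groups hold different mice, with a single tumor from each. DESeq2 called 490 genes in place of 1. The count was 0 with age, sex or tamoxifen day as a covariate, with all 16 tumors in the fit, with mice induced at E8 or numbered mice alone, and without 43989C and R26P115 or 43989C and R26P170. The fit with sex also left out R26P170, whose sex is not given, and without R26P170 alone the count was 0 as well. Leaving out 1 tumor gave 0 to 3 called genes: Snhg11 and Snx7 without 43990A, Ttc39aos1, Ttc39a and Gfap without 43992A, and Ttc39aos1 alone without R26P123. Genes at an unadjusted p under 0.05, 2606 of 21261 tested in the main analysis, were 1557 of 15175 with filterByExpr and 1665 of 20960 at E8 alone. They were 1237 of 21248 with limma and 1727 of 20773 in numbered mice. The split of these genes, 1442 higher and 1164 lower, was 583 and 654 with limma, 1233 and 1273 with 43990A as intracranial, 903 and 920 with the scheme of mouse names and 1189 and 584 with sex as covariates. The split with sex came from the fit that also lacked R26P170, and without R26P170 alone the split was 1361 higher and 957 lower. With 43990A as intracranial the median of all genes moved to 0.10.

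The skeletal muscle median of -2.72 was -0.94 with limma and -0.97 in numbered mice, and -3.57 to -1.46 without 1 tumor. The meninges median of 0.90 was -0.066 in numbered mice and -0.014 without 43989C and R26P115, and 0.24 to 2.06 without 1 tumor. It was 2.36 with sex, in the fit that also lacked R26P170, and 1.15 without R26P170 alone. The pituitary median of 4.03 was 3.22 with age, 2.39 at E8 alone, 0.60 with limma and 0.67 without 43989C and R26P170, and 2.68 to 4.88 without 1 tumor. It was 2.70 with sex, again in the fit without R26P170, and 2.68 without R26P170 alone. The T and NK cell median of -0.55 was 0.13 at E8 alone and 0.23 in numbered mice. The macrophage median of -0.53 was 0.017 at E8 alone. With limma the count of higher genes was 0 in place of 11 for choroid plexus, 0 in place of 4 for cartilage, 2 in place of 6 for meninges and 1 in place of 5 for endothelium, and that of lower genes 0 in place of 9 for stratified epithelium and 2 in place of 6 for adipocytes. The cause was not tested. Of 130 named genes, 29 turned direction in at least 1 alternative, up to 11 in a single one (43990A as intracranial), and of 38 list medians up to 10 did (numbered mice). Of these 29 genes, 5 had an unadjusted p under 0.05 with all 11 tumors: Pomc (-0.24 without 43989C and R26P170), Kit (1.66) and Cxcl9 (1.90) with 43990A as intracranial, Krt4 (2.10 without R26P123, in a range from -14.54 to 2.10 without 1 tumor) and Oca2, which was -4.25 in numbered mice, -1.31 with the scheme of mouse names, -4.29 without 43989C and R26P115, -3.74 without R26P115 and 43990A and -4.21 without R26P115, in a range up to 8.75 without 1 other tumor. The tumors induced before E8 were also the oldest, so age and tamoxifen day cannot be told apart over the 11 tumors. The back tumor was among them, and its site cannot be told apart from its age and tamoxifen day. The back, nose and mouth sites hold 1 tumor each, so site and tumor cannot be told apart there. Levels under the floor of 3 counts were not resolved.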

Other observations

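Extracellular matrix genes held several of the lower genes of the comparison. Of 24 genes, 9 were lower and 1 higher in the intracranial tumors, with negative log2 fold changes in 22 of 24 and a median of -0.72, which stayed between -1.18 and -0.71 when 1 tumor was left out. The 3 chains of the filamentous collagen VI were among them, Col6a1 (log2 fold change -3.53, SE 0.81), Col6a2 (-3.04, SE 0.77) and Col6a3 (-4.42, SE 0.87). Col6a3 lay at 14.0, 177, 5.36, 70.0 and 116 TPM in the back, jaw 43987A, nose, mouth and jaw R26P123 tumors, and between 0.959 and 7.19 TPM (median 3.08) in the intracranial tumors. The nose tumor was within the intracranial range of Col6a3 and the other 4 were above it. Postn, periostin, a matrix protein of periosteum and tumor stroma, lay at 79.1, 1806, 30.0, 7065 and 5391 TPM in the extracranial tumors and between 14.1 and 72.6 TPM (median 61.4) in the intracranial tumors, again with the nose tumor inside that range. The exception in direction was Col8a1, a short-chain collagen of vessels and eye, at a log2 fold change of 2.84 (SE 0.96).

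Adipocyte genes were lower in 6 of 9 genes, with a median of -3.25, or -2.53 with genes at 0 in a group set at their bound. The back tumor was the highest in 8 of the 9 genes and held 52.5% of their summed TPM, and without it 2 genes were lower and the median was -2.02. With 43990A as intracranial 2 were lower, and among mice induced at E8 alone 1 was. Fabp4, a fatty acid carrier of adipocytes and endothelium, lay at 262, 78.8, 45.0, 2.39 and 19.6 TPM in the extracranial tumors and between 0.536 and 15.5 TPM (median 8.10) in the intracranial tumors. Among 39 Hox genes, which pattern the body axis, 5 were higher (Hoxa9, Hoxa10, Hoxa11, Hoxd12 and Hoxd13) and 1 lower. The count of higher genes was 1 without 43987A, 43990A or 43998A, 2 without 29941C, 3 without R26P123 and 11 without 43825B, and the median of 0.56 ranged from -0.061 to 2.37 without 1 tumor. Hoxd13 was at 47.0 TPM in 29225D and at 4.38 TPM or below in the other 10 tumors. Proliferation genes had 1 of 20 lower, with negative log2 fold changes in 20 of 20 and a median of -0.43. The nose tumor 43990A was the highest in 16 of the 20 genes. The count of lower genes ranged from 0 (without 43990A or R26P170) to 3 (without 29941C or 29225D). The median was -0.19 without R26P115, -0.017 without R26P115 and 43990A, -0.030 in numbered mice and -0.034 with 43990A as intracranial. The gene lower with all 11 tumors was Mki67, the antigen of Ki67 staining, at 37.6, 34.3, 89.8, 42.8 and 49.8 TPM in the extracranial tumors and between 2.11 and 32.7 TPM (median 22.7) in the intracranial tumors. The groups did not overlap in Mki67, whose lowest level was that of R26P115, and its edgeR adjusted p was 0.373. The log2 fold change of -1.32 (SE 0.52) was -0.50 (SE 0.64) with 43990A as intracranial.

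Several of the remaining lists moved with single tumors. Epithelial Epcam (log2 fold change 2.92, SE 0.86) and Cldn3 were higher among 12 genes of simple and glandular epithelium (median 0.63, 4 higher without 43825B, with medians of 1.90 without 43825B, 1.88 without R26P123 and 0.15 without R26P170), and 5 of 13 endothelial genes were higher (median 0.53), of which Slco1c1 was at 654 TPM in R26P115. The endothelial count was 2 without R26P115 or 43990A and 3 without 43989C, 43998A or R26P123, and the median stayed between 0.41 and 0.92 without 1 tumor. Schwann cell genes had 2 of 9 lower, also in each fit without 1 tumor, and their median of 0.21 was -0.95 without 43989C. Glycolysis and hypoxia genes had 1 of 19 in each direction (median 0.32, and -0.067 without R26P170), smooth muscle and pericyte genes 0 of 9 (median -0.11, from -0.43 without 43989C to 0.098 without 43987A), cranial mesenchyme genes 2 of 30 higher and 1 lower (median 0.27, 5 higher without 43987A or R26P123 and 4 without 43990A, with medians from 0.00088 without 43825B to 0.72 without R26P123), tendon genes 1 of 6 lower (median -0.94, 3 lower without 43989C and 0 without 43825B, with medians from -2.03 without 43989C to -0.61 without 43998A), nasal and olfactory genes 2 of 9 in each direction (median 0.90, and -1.69 without R26P170), salivary gland genes 1 of 7 in each direction (median 1.10), melanocyte genes 1 of 8 higher (median 1.41, and -1.86 without R26P115) and photoreceptor genes 0 of 8 (median 1.52, and 0.55 without 43989C). Of the 7 erythroid genes listed, 4 had no count in these tumors, and the other 3 had 0 in each direction and a median of -0.97, which was 0.98 without R26P123.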
